A study of Mus musculus with 48 samples.

Results

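Mitochondrial ribosomal proteins were followed in messenger RNA of mouse cardiomyocytes. They were taken as every row of the deposited count table whose gene symbol starts with Mrpl or Mrps and a digit, with symbols of pseudogenes (ending in -ps) left out, of which there were 0. The rule gave 76 of 30743 genes, 47 named for the large subunit (Mrpl) and 29 named for the small subunit (Mrps). The rule itself used no measured value, though it was set with earlier results of these data known. All 76 passed the filter on low counts in both sets of libraries described below.

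The mice combined the nuclear genome (n) of one inbred strain with the mitochondrial genome (mt) of the same or another strain. Nuclei and mitochondria came from C3H/HeN (C3H) or C57BL/6J (C57), and animals with genomes of both are called MNX. Cells were taken 3 days after sham surgery or after ACF, an abbreviation most often used for aortocaval fistula, which overloads the heart with volume. Each of the 48 libraries came from cardiomyocytes of a heart digested with collagenase, from which the right ventricle and the atria were then cut away.

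In 24 libraries, called set A here, the titles gave the surgery. Set A held C3H_wt and C57_wt, labelled as the wild-type strains, and C3H_MNX and C57_MNX, each with 3 sham and 3 ACF libraries. The other 24 libraries, set B, had no surgery in their titles and were all labelled sham. Set B held C3H_WT, C3Hn-C57mt, C57_WT and C57n-C3Hmt with 6 libraries each. Preparations were kept by the submitters only when most cells were live, rod-shaped cardiomyocytes, and age, sex and litter were not used here.

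The genotype labels of the exchanged animals in set A ran against their titles and were not followed here. C3H_MNX was labelled C57n:C3Hmt and C57_MNX was labelled C3Hn:C57mt. A score was taken from 36 genes whose lowest C3H_WT library exceeded the highest C57_WT library by a log2 gap above 1.5, with 0 for the C57_WT profile and 1 for that of C3H_WT. It was 0.84 to 1.00 in C3H_MNX and 0.01 to 0.11 in C57_MNX. Kcnj14, a potassium channel gene, had 5.23 to 6.06 log2 CPM in the 12 C3H libraries of set A and -2.38 to 0.04 in the 12 C57 libraries. Groups of set A are therefore named by title throughout.

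Mammalian mitochondria make a small set of respiratory chain proteins on ribosomes of their own, whose RNA is encoded in mitochondrial DNA and whose proteins are all encoded in the nucleus, made in the cytosol and imported. Some of these proteins descend from bacterial ribosomal proteins and others were added in the course of mitochondrial evolution. Heart muscle depends on oxidative phosphorylation, and defects of several of these genes, MRPL3, MRPL44, MRPS16 and MRPS22 among them, cause disease of the heart or of respiratory chain activity in people. Exchanging the mitochondrial genome leaves the proteins of this ribosome with those of the nuclear strain and pairs them with RNA of the other.

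Of the 76 genes, 47 have a counterpart in bacterial ribosomes and 27 do not, and Mrpl55 and Mrps36 were put in neither class. The symbols do not always tell the place of the protein. Mrps18a and Mrps30 encode proteins that sit in the large subunit, and the product of Mrps36 is now counted as a part of the 2-oxoglutarate dehydrogenase complex. All are kept under their symbols.

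Promoters are shown for 2 groups of genes. Transcripts of Mrpl14, Mrpl35, Mrpl55 and Mrpl3 differed between the nuclear strains by the smallest adjusted p. Those of Mrpl12, Mrpl51 and Mrpl30 were among the highest in level per kilobase of coding length. Each line gives the 250 bases before the RefSeq start of the gene on its own strand, 5′ to 3′, from the C57BL/6J reference assembly GRCm38.p6. Capitals mark a match to one of 3 motifs, spelled below. The windows are on chr17:45686099-45686348 (Mrpl14, plus strand), chr6:71823785-71824034 (Mrpl35, minus strand), chr11:59202236-59202485 (Mrpl55, plus), chr9:105053018-105053267 (Mrpl3, plus), chr11:120484387-120484636 (Mrpl12, plus), chr6:125191950-125192199 (Mrpl51, plus) and chr1:37890227-37890476 (Mrpl30, plus).
Mrpl14: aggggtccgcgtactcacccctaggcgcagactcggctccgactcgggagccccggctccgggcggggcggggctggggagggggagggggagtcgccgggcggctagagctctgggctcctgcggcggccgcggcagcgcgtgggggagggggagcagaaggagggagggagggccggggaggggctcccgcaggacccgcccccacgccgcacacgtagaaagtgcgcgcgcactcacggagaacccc
Mrpl35: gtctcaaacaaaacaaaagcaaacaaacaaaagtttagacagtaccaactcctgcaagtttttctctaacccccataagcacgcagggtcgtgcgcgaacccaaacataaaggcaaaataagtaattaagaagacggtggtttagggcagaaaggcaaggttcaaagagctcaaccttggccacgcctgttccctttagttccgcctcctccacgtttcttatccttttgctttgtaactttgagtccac
Mrpl55: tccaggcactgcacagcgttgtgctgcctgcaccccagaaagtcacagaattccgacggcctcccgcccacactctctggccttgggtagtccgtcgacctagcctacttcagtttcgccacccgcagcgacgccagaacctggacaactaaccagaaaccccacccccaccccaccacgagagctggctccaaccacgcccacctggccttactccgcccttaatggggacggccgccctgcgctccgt
Mrpl3: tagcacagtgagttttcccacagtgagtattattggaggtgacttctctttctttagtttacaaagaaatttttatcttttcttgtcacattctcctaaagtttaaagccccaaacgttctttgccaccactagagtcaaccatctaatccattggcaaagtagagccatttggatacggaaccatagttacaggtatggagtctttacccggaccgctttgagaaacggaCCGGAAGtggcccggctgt
Mrpl12: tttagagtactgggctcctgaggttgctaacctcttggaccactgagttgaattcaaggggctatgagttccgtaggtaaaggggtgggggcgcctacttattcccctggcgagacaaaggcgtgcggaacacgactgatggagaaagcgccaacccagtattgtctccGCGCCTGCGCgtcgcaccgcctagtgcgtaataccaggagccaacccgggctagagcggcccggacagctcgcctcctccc
Mrpl51: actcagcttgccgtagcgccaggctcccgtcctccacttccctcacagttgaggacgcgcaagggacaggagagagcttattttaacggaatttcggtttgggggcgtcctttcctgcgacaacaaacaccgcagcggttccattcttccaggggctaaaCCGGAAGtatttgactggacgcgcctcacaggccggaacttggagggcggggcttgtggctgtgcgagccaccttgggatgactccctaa
Mrpl30: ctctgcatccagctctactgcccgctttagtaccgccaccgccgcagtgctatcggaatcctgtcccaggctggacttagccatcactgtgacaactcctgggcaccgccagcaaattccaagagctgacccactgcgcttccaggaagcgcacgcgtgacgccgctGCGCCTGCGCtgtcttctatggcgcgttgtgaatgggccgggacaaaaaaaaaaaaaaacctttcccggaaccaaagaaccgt

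The motifs were those of NRF1 (GCGCA, any base, GCGC), of ETS factors such as GABPA (CCGGAAG) and of YY1 (AANATGGCG), regulators known for their role at nuclear genes of mitochondrial proteins. Both strands were searched in the window from 250 bases before to 50 after each start, where motifs may overlap. RefSeq held a window for 67 of the 76 genes. The NRF1 motif was in 12 of them (17.9%) and in 5.19% of all 27025 genes with a window. The ETS motif was in 24 (35.8%, against 9.93%) and the YY1 motif in 10 (14.9%, against 2.76%). At least 1 of the 3 was in 40 (59.7%, against 15.9%). Among the genes shown, Mrpl12 and Mrpl30 had an NRF1 match and Mrpl3 and Mrpl51 an ETS match before the start. Mrpl14 had an NRF1 match and Mrpl35 a YY1 match in the 50 bases after the start, which are not printed, and Mrpl55 had no match. These are matches of letters in the reference strain, and they were not read in C3H.

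Libraries held 15.89 to 20.77 M counts in set A and 15.97 to 26.09 M in set B. The 76 genes took 0.194 to 0.360% of them in set B and 0.0882 to 0.248% in 23 libraries of set A. The remaining library, C57_wt ACF 489, stood apart at 0.0378%. The mean level of 12 cardiomyocyte markers was 9.30 log2 CPM in it and 11.18 to 12.37 in the rest of set A, and its erythrocyte markers were at 9.22 against -1.13 to 4.43 (Hba-a2, an alpha globin, at 15.99 against 7.91 or less). Its 10 fibroblast markers were at 6.89, against 3.47 to 6.15 elsewhere in set A. The cardiomyocyte markers were at 11.38 to 12.21 in set B. Rn45s, the precursor of cytosolic ribosomal RNA, was at 7.83 to 9.68 log2 CPM in set A and 10.71 to 12.41 in set B, and the sets were not compared directly. In such bulk samples a smaller share of cardiomyocytes and less of these transcripts in each cardiomyocyte cannot be told apart. Results that rest on library 489 are given with and without it.

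All 76 genes had counts in every library, the lowest being 13 for Mrps28 in library 489. Levels between genes are compared in CPM (counts scaled by library size) per kilobase of coding length, over all 48 libraries. Mrpl42 had the highest mean at 248 CPM per coding kilobase, with group means from 160 to 332. Mrpl51 followed at 166 (131 to 183), Mrpl12 at 146 (96.1 to 179), Mrps23 at 143 (114 to 160) and Mrpl30 at 113 (77.2 to 149). Mrpl42, Mrpl51 and Mrps23 belong to the proteins without a bacterial counterpart. The product of Mrpl12 forms the stalk of the large subunit with that of Mrpl10, and it also binds the mitochondrial RNA polymerase. The ranges of group means of Mrpl51, Mrpl12, Mrps23 and Mrpl30 overlap with each other and with that of Mrpl33, which came next at 103 (73.7 to 145). That of Mrpl42 overlaps with those of Mrpl51, Mrpl12 and Mrps23. The group means do not fix this order. Coding length also leaves out the untranslated parts of a transcript, which can give counts too. Their part in this order was not tested. The 3 lowest means were Mrps10 at 14.5 (10.3 to 18.3), Mrps11 at 11.9 (8.31 to 13.6) and Mrps22 at 9.77 (7.80 to 11.1), where each range overlaps with the next, and that of Mrps10 also with Mrps5 at 14.8 (12.2 to 16.7).

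Other genes named for their roles lay between these ends. Mrpl3, which lies at the core of the large subunit, had 40.1 CPM per coding kilobase, and Mrpl44, part of the large subunit with a ribonuclease fold, had 34.3. Mrps16, an essential small subunit protein, had 51.1 and Mrps36 had 84.5. Of the 3 paralogs of the bacterial S18 protein, Mrps18a had 50.7, Mrps18b 24.0 and Mrps18c 23.4. The plot of levels per coding kilobase shows that genes of the 2 subunits are mixed along the order.

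**Figure D1:**
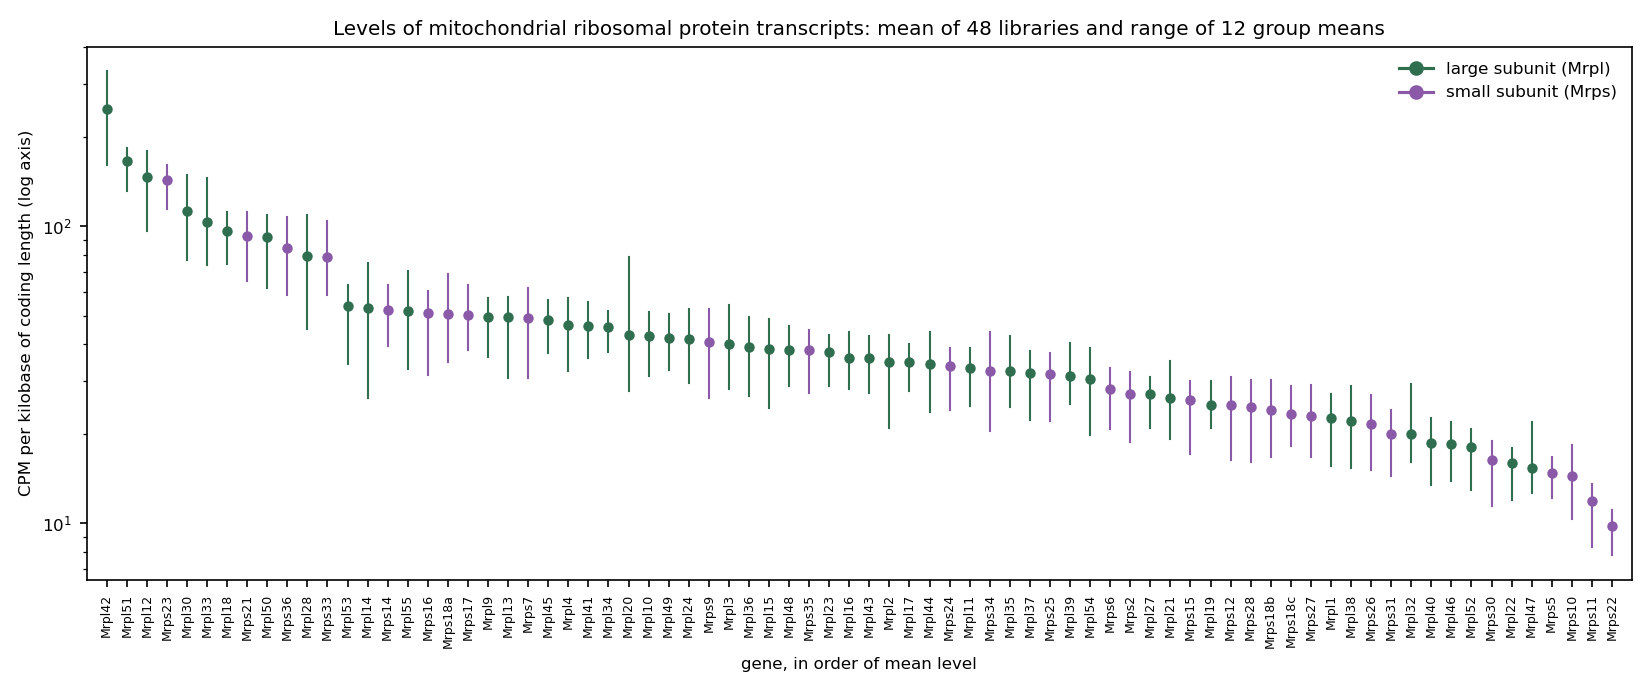
Level of each of the 76 genes in CPM per kilobase of coding length on a log axis, in order of the mean. Points are means of 48 libraries, bars run from the lowest to the highest of the 12 group means, green is the large and purple the small subunit by symbol. Mrpl42 has the highest mean at 248 and Mrps22 the lowest at 9.77, and the bars of neighbours in the order overlap.

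The levels moved together from library to library. On the log2 CPM scale, the standard deviation (SD) of a gene about its group means was 0.36 at the median of the 76 genes. When the median of the 76 genes in the same library was subtracted, it was 0.14, and it became smaller for 76 of 76 genes. Without library 489 the values were 0.27 and 0.12. The subtracted median is built from these same genes, which favours a smaller SD. Over all genes tested the median SD before any subtraction was 0.31, and a value after subtraction is not given for them. The medians of the large and the small subunit genes differed from each other with an SD of only 0.048 across libraries about the group means, against 0.34 for the median of all 76.

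Nuclear genes of respiratory complex I, 37 Nduf genes, moved with the family, and the 79 genes of cytosolic ribosomal proteins less closely. The median of the 76 genes minus that of the Nduf genes had an SD of 0.12 about the group means (0.083 without library 489). Minus the cytosolic ribosomal proteins it had an SD of 0.31 (0.15 without library 489). In library 489 the median of the 76 genes was -1.79 on the log2 scale relative to each gene's mean over all libraries, that of the Nduf genes was -2.40 and that of the cytosolic ribosomal proteins 0.03. It was the lowest library of set A for 74 of the 76 genes.

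Next lowest in set A were C57_MNX sham 6763 at -0.64, C3H_MNX ACF 6756 at -0.59 and C57_wt sham 491 at -0.53, where the Nduf genes were at -0.76, -0.56 and -0.67. Libraries 6763 and 6756 also had high means of the 10 endothelial markers, at 6.59 and 6.51 log2 CPM within a range of 4.81 to 6.59 for set A without library 489. The part of other cells in these low values was not tested. In set B the medians ran from -0.35 in C57_WT 3 to 0.46 in C57_WT 2, so the widest spread of set B lay within 1 group. The largest single SDs about group means were those of Mrps28 (0.61), Mrps31 (0.49) and Mrpl15 (0.46), and each of these was far below its group in library 489, at 0.04, 1.57 and 2.17 log2 CPM.

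**Figure D2:**
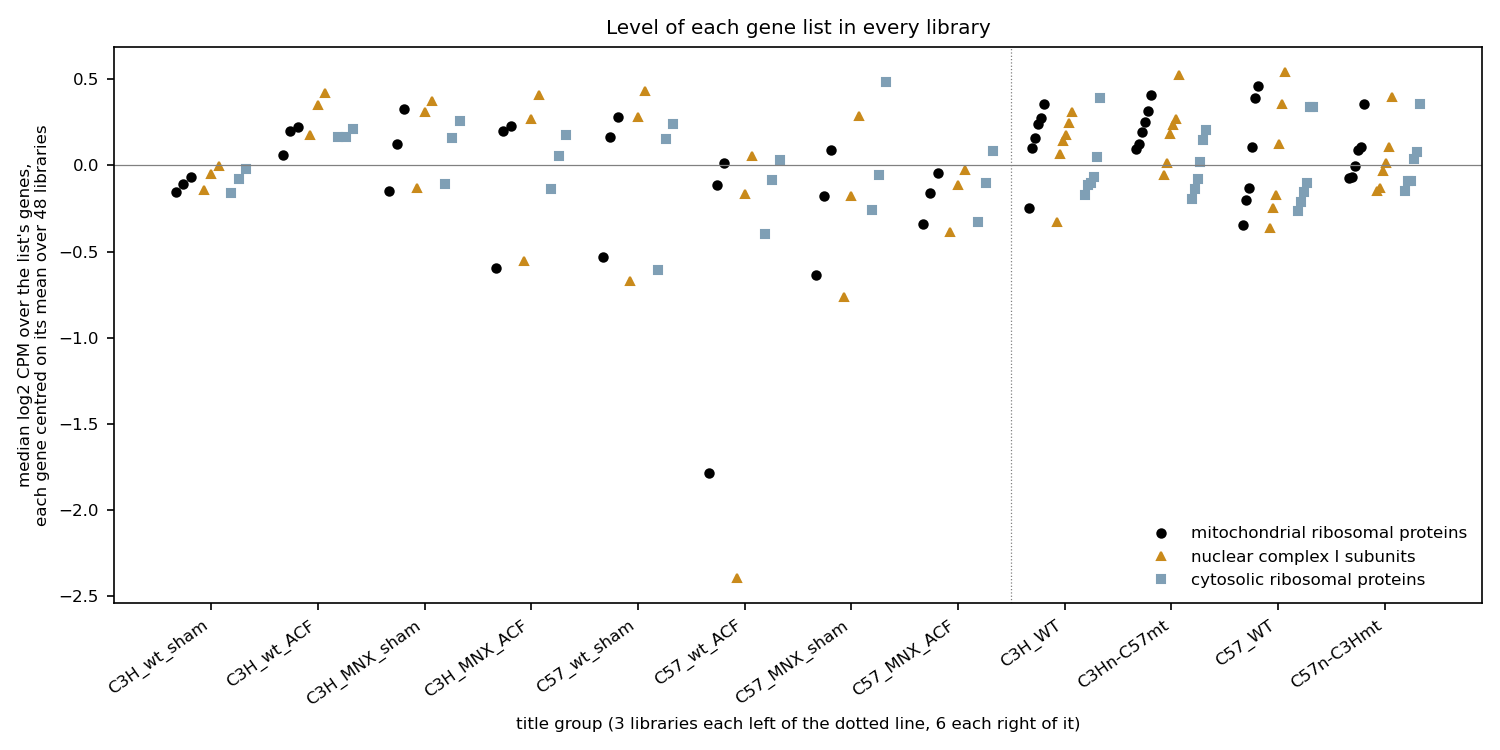
Median of each gene list in each library, with every gene centred on its mean over the 48 libraries (log2 CPM). Black circles are the 76 mitochondrial ribosomal protein genes, orange triangles 37 complex I genes, blue squares 79 cytosolic ribosomal protein genes, and the dotted line separates set A from set B. Circles and triangles lie close together, also in library 489, where they stand at -1.79 and -2.40 and the squares at 0.03.

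ACF was asked about first over all 4 title groups of set A and then within each. No gene of the family passed the test for the mean ACF effect (0 of 76 in edgeR's quasi-likelihood test at a Benjamini-Hochberg adjusted p of 0.05, where 0.275% of 13440 genes passed, 0.201% as higher and 0.0744% as lower). At an unadjusted p of 0.05 the count was also 0 (11.3% of all genes), and DESeq2 called 0. Here and below, 0 calls do not show that levels did not differ. The median log2 difference, ACF minus sham, was -0.07, with 18 genes above and 58 below 0, against a median of 0.00 for all genes. Without library 489 it was 0.03 and without libraries 489 and 6756 it was 0.09, with 66 genes above 0 and 10 below. The sign of the family's median under ACF therefore changed when 1 of 24 libraries was left out.

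In C3H_wt the median difference was 0.29, with 74 of 76 genes above 0. No gene of the family was called by edgeR with Benjamini-Hochberg adjustment (0% of all genes), 1 had an unadjusted p under 0.05 (7.08% of all genes), and DESeq2 called 0. Mrpl20, the counterpart of bacterial L20 in the large subunit, had that p of 0.026 in edgeR. Its levels were 4.35, 4.50 and 4.55 log2 CPM in sham and 5.32, 4.95 and 5.12 in ACF. The groups did not overlap, yet the adjusted p in edgeR was 0.59 for a log2 difference of 0.68 with a standard error of 0.28. Mrps18b had 3.72, 3.98 and 4.00 log2 CPM in sham and 4.50, 4.03 and 4.47 in ACF, a log2 difference of 0.45. Mrpl49 and Mrps25 were the 2 genes below 0, at -0.23 and -0.03.

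The genes of other lists also stood above 0 in C3H_wt. The median was 0.39 for the Nduf genes and 0.29 for the cytosolic ribosomal proteins, with 0 called in each. Titles also carry a code such as L3, which the labels do not explain. With this code as a covariate the family's median in C3H_wt became -0.15. The sham libraries of C3H_wt had L codes 7, 3 and 8 and the ACF libraries 2, 1 and 5, so that no code held both.

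In C57_wt the median difference was -0.45, with 75 of 76 genes below 0, and it was -0.09, with 52 below 0, without library 489. No gene of the family was called (0% of all genes), 2 had an unadjusted p under 0.05 in edgeR (15.1% of all genes), and DESeq2 called 0. Mrpl42 had 6.56, 4.10 and 6.54 log2 CPM in ACF, the middle value being library 489, and 7.45, 7.20 and 6.25 in sham. These groups overlapped, and the log2 difference was -0.97 with a standard error of 0.43 and an adjusted p of 0.30 in edgeR. Mrpl24 was at -0.35, and Mrpl52, at 0.14, was the 1 gene above 0. The median of the Nduf genes was -0.62 and that of the cytosolic ribosomal proteins -0.12.

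The exchanged animals came next. The median difference was -0.12 in C3H_MNX, with 67 of 76 genes below 0, and it was 0.09, with 60 above 0, without library 6756. In C57_MNX it was 0.06, with 52 above 0. edgeR called 0 genes of the family in each (0.00744% of all genes in C3H_MNX and 0% in C57_MNX), 0 had an unadjusted p under 0.05 (1.71% and 2.04% of all genes), and DESeq2 called 0. Mrps18b had 3.90, 4.11 and 4.11 log2 CPM in ACF of C57_MNX and 3.84, 3.88 and 3.50 in sham, without overlap, for a log2 difference of 0.29 and an adjusted p of 1.0 in edgeR. Mrpl49 in C3H_MNX stood at -0.26.

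The difference between the ACF responses of exchanged and wild-type animals was tested as an interaction. For C3H titles its median was -0.40 with all 76 genes below 0, and -0.21 with 69 below 0 without library 6756. For C57 titles it was 0.49 with all 76 above 0, and 0.12 with 64 above 0 without library 489. No gene of the family was called by edgeR in either (0% of all genes in each), unadjusted counts were 0 and 1 (2.96% and 5.76% of all genes), and DESeq2 called 0 in both. The 1 gene was Mrps18b, with an interaction of 0.72, a standard error of 0.32 and an adjusted p of 0.75 in edgeR with Benjamini-Hochberg adjustment. With the L code as a covariate the median for C3H titles was 0.25. The plot of ACF differences shows how the 76 genes shift together in each title group and how far 2 libraries carry that shift.

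**Figure D3:**
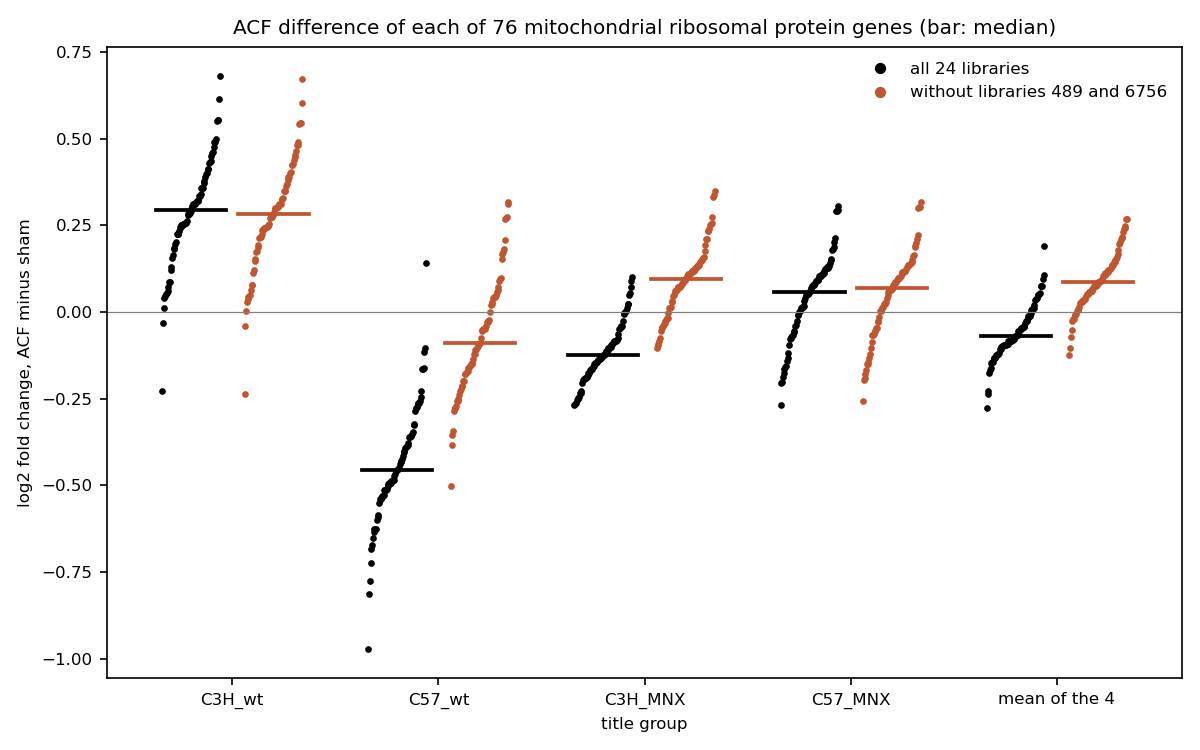
Log2 fold change, ACF minus sham, of each of the 76 genes in the 4 title groups of set A and for their mean, in order within a column, with a bar at the median. Black uses all 24 libraries and red leaves out libraries 489 and 6756. The C57_wt median goes from -0.45 to -0.09 and the C3H_MNX median from -0.12 to 0.10 between them.

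The other genes of mitochondrial protein synthesis did not pass the test under ACF either. For the mean ACF effect, 0 were called of 7 subunits with other symbols, 14 translation factors, 17 aminoacyl-tRNA synthetases, 22 assembly and rRNA modification factors, and 13 genes of mitochondrial transcription and its regulation. Their median log2 differences were -0.07, -0.05, -0.05, -0.10 and 0.06. Unadjusted, 1 gene of the last list was under 0.05 in edgeR. It was Pprc1, a coactivator of the PGC-1 family named here after its value was seen, at 0.34 with an adjusted p of 0.11.

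The exchange of mitochondria within a nuclear strain was compared 4 times in set A, by surgery and title. In sham, the median difference of C3H_MNX from C3H_wt was 0.20, with 76 of 76 genes above 0. That of C57_MNX from C57_wt was -0.23, with 76 of 76 below 0. In ACF they were -0.19 (73 below 0) and 0.25 (70 above 0). The ACF comparisons share no libraries with the sham comparisons. Their signs rested on single libraries: without library 6756 the ACF median of C3H titles was 0.01 (43 above 0), and without library 489 that of C57 titles was -0.11 (61 below 0), so that in neither case was it opposite in sign to the sham median.

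No gene of the family was called in any of these 4 comparisons by edgeR with Benjamini-Hochberg adjustment or by DESeq2. At an unadjusted p under 0.05 the counts were 0 as well, where 1.47% of all genes passed for C3H titles and 2.2% for C57 titles in sham, and 5.51% and 7.95% in ACF. Of all genes, 0.0149% were called for C3H titles in sham, 0% for C57 titles in sham, 0.0149% for C3H titles in ACF and 0% for C57 titles in ACF. With the L code as a covariate the sham median of C3H titles was -0.22.

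Among single genes, Mrpl36 had 3.92, 3.65 and 4.17 log2 CPM in sham C3H_MNX and 3.58, 3.59 and 3.40 in sham C3H_wt, with no overlap and a log2 difference of 0.40 (edgeR adjusted p 1.0). Mrpl17 stood at 0.34 in the same comparison. Mrps10 had 2.52, 3.00 and 2.40 in sham C57_MNX and 3.24, 3.21 and 2.75 in sham C57_wt, with overlap and a log2 difference of -0.42 (edgeR adjusted p 0.99). Mrpl4 stood at -0.39 there.

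Set B repeated the question with 6 libraries per group. In the C57 nucleus the median of C3Hmt minus C57mt was -0.04, with 49 of 76 genes below 0. In the C3H nucleus it was -0.08, with 68 below 0. The medians of all genes were -0.01 and 0.00. The difference between these 2 mitochondrial effects had a median of -0.03 and ran from -0.30 to 0.19 over the 76 genes.

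edgeR called 0 genes of the family in each of these 3 comparisons of set B, and of all genes 0% in the C57 nucleus, 0.00747% in the C3H nucleus and 0% for the difference. Unadjusted counts under 0.05 were 0 in each (11.3%, 9.38% and 16.3% of all genes), and DESeq2 called 0. With library totals as scaling, 50 genes of the family were called lower with C3Hmt in the C57 nucleus. Under that scaling the median was -0.38 for the family and -0.34 for all genes.

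Mrpl14 was at 0.16 and Mrps24 at 0.16 in the C57 nucleus, and Mrpl24 at -0.22 and Mrpl3 at -0.16. In the C3H nucleus Mrps31 was at -0.28 with an adjusted p of 0.53 in edgeR. Its levels ran from 3.90 to 4.78 log2 CPM with a median of 4.53 in C3H_WT and from 4.43 to 4.84 with a median of 4.78 in C3Hn-C57mt, so that the groups overlapped. C3H_WT 23 and 24 were the low libraries of this gene, at 3.90 and 3.93. Mrpl1 was at -0.23, Mrpl34 at 0.10 and Mrps15 at 0.04.

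Nuclear strain gave the differences that passed the test. Over both mitochondrial backgrounds of set B, C3Hn minus C57n, edgeR with Benjamini-Hochberg adjustment called 18 of 76 genes (23.7%), 15 higher and 3 lower in C3Hn. Of all 13395 genes 35.7% were called, 18.9% as higher and 16.8% as lower. The share of the family was thus below that of all genes. The median log2 difference was 0.15 for the family, with 61 genes above 0, and 0.01 for all genes. The cardiomyocyte markers stood at 11.87 to 12.21 log2 CPM in the 12 C3Hn libraries and at 11.38 to 11.84 in the 12 C57n libraries, without overlap. Macrophage markers had medians of 1.98 and 2.30, with overlap. The part of the cells' makeup in the strain differences was not tested. DESeq2 called 19. With the L code as a covariate 7 remained, namely Mrpl14, Mrpl19, Mrpl20, Mrpl3, Mrpl35, Mrpl55 and Mrps2.

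Within C57mt animals 12 genes were called, 9 higher and 3 lower in C3Hn (15.8%, against 31.9% of all genes, 15.9% as higher and 16.0% as lower). Within C3Hmt animals there were 11, 8 higher and 3 lower (14.5%, against 19.4%, 10.6% as higher and 8.78% as lower). DESeq2 called 12 and 10. The 3 lower genes were Mrpl35, Mrpl55 and Mrpl3 in both. All 3 belong to the large subunit. With the L code as a covariate, the calls within C57mt were Mrpl14, Mrpl20, Mrpl36 and Mrps2, and Mrpl35, Mrpl55 and Mrpl3 were not among them, at edgeR adjusted p values of 0.19, 0.20 and 0.16. Within C3Hmt, these last 3 were the only calls that remained with the code.

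Mrpl35, the counterpart of bacterial L35, was lower in the C3H nucleus. In set B it had 3.52 to 4.04 log2 CPM with a median of 3.93 in the 12 C3Hn libraries and 4.18 to 4.72 with a median of 4.44 in the 12 C57n libraries. The groups did not overlap. The log2 difference was -0.57 with a standard error of 0.068 and an adjusted p of 1.4e-07 in edgeR. In set A the levels ran from 3.35 to 4.21 (median 4.00) for C3H titles and from 2.40 to 4.77 (median 4.58) for C57 titles, and they overlapped through libraries 489, 6763 and 491. The difference there was -0.46 with an adjusted p of 0.066, and -0.54 with an adjusted p of 0.00069 in edgeR without library 489.

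Mrpl55, a large subunit protein, had the largest drop of the family in set B. It ran from 3.80 to 4.37 log2 CPM (median 4.15) in C3Hn and from 4.34 to 5.20 (median 4.80) in C57n. Only C57_WT 3, the lowest C57n library at 4.34, lay inside the range of the C3Hn libraries. The difference was -0.66 with an adjusted p of 1.0e-06 in edgeR. In set A it was -0.44 with an adjusted p of 0.15, and -0.54 with an adjusted p of 0.0047 without library 489.

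Mrpl3 encodes the counterpart of bacterial L3, near the centre where peptide bonds are made. In set B it ran from 4.73 to 5.61 (median 5.28) log2 CPM in C3Hn and from 5.42 to 6.14 (median 5.69) in C57n. The groups overlapped between 5.42, in C57_WT 3, and 5.61, in C3Hn-C57mt 18. The difference was -0.46 with an adjusted p of 8.3e-05 in edgeR, and -0.41 with an adjusted p of 0.017 in set A. The set A call was lost with the L code as a covariate, at -0.30 with an adjusted p of 0.082, and with library totals as scaling, at -0.081 with an adjusted p of 0.69.

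Mrpl14, the counterpart of bacterial L14 at the face between the subunits, had the largest rise of the family. It ran from 4.64 to 5.34 log2 CPM (median 4.96) in C3Hn and from 3.71 to 4.61 (median 4.21) in C57n of set B, without overlap. The difference was 0.78 with a standard error of 0.095 and an adjusted p of 2.4e-07 in edgeR. In set A the C3H titles ran from 4.14 to 5.18 (median 4.89) and the C57 titles from 2.34 to 4.42 (median 3.88), for a difference of 1.03 with a standard error of 0.18 and an adjusted p of 0.00021. The overlap in set A came from C3H_MNX ACF 6756, at 4.14.

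Mrpl20 rose by 0.55 in set B (edgeR adjusted p 0.00029) and by 0.75 in set A (0.00066). It ran from 3.95 to 4.70 (median 4.33) log2 CPM in C3Hn and from 3.45 to 4.35 (median 3.62) in C57n, with overlap through C57n-C3Hmt 7, C57_WT 1 and C57_WT 2, at 4.35, 4.24 and 4.26. Mrpl15, the counterpart of bacterial L15, rose by 0.38 (0.0025) and 0.59 (0.045). Mrpl54 rose by 0.38 (0.0058) and 0.57 (0.028). In set A the call of Mrpl15 was lost in 18 of the 24 fits that leave out 1 library, with edgeR adjusted p values up to 0.087. That of Mrpl54 was lost in 3 of them and with the L code, at 0.056.

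The 4 groups of set B show the strain pattern of these genes under each mitochondrial genome. Mrpl14 had medians of 4.88 log2 CPM in C3H_WT and 5.06 in C3Hn-C57mt, and of 4.02 in C57_WT and 4.27 in C57n-C3Hmt. Mrpl35 had 3.81 and 4.00 in the first pair and 4.47 and 4.44 in the second. In both genes the exchanged animals stood beside the group of their nuclear strain. Mrpl14 differed between the strains by 0.93 under C57mt (standard error 0.13) and by 0.63 under C3Hmt (0.13), and the difference of these was -0.30 with an adjusted p of 0.45 in edgeR.

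Among genes named for the small subunit, Mrps2 rose by 0.30 in set B with an adjusted p of 0.00047 in edgeR. Mrps34 rose by 0.51 with an adjusted p of 0.0047 in edgeR. Mrps9, Mrps10 and Mrps36 rose by 0.32, 0.28 and 0.20. No gene named for the small subunit was called lower. Other genes of the large subunit that rose in set B were Mrpl19 by 0.40, Mrpl38 by 0.36, Mrpl21 by 0.35, Mrpl40 by 0.33, Mrpl36 by 0.32 and Mrpl1 by 0.25. Another 9 genes were named for known roles, with earlier results of these data known. Of these 9, Mrpl3 and Mrps36 passed the test in set B and 7 did not. In set B and set A the strain differences were 0.08 and 0.21 for Mrpl12, 0.23 and 0.23 for Mrpl44, 0.28 and 0.33 for Mrps16, and 0.21 and 0.09 for Mrps22. Mrps18a, Mrps18b and Mrps18c stood at 0.17, 0.29 and 0.09 in set B, with none of the 3 called. Mrpl12, whose product also binds the mitochondrial RNA polymerase, ran from 6.29 to 6.97 log2 CPM in C3H_WT and from 6.25 to 7.16 in C57_WT, so that the spread within C57_WT covered that of C3H_WT. Just outside the threshold were Mrpl48, Mrpl32 and Mrps26, with adjusted p values of 0.050, 0.050 and 0.051 in edgeR.

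**Figure D4:**
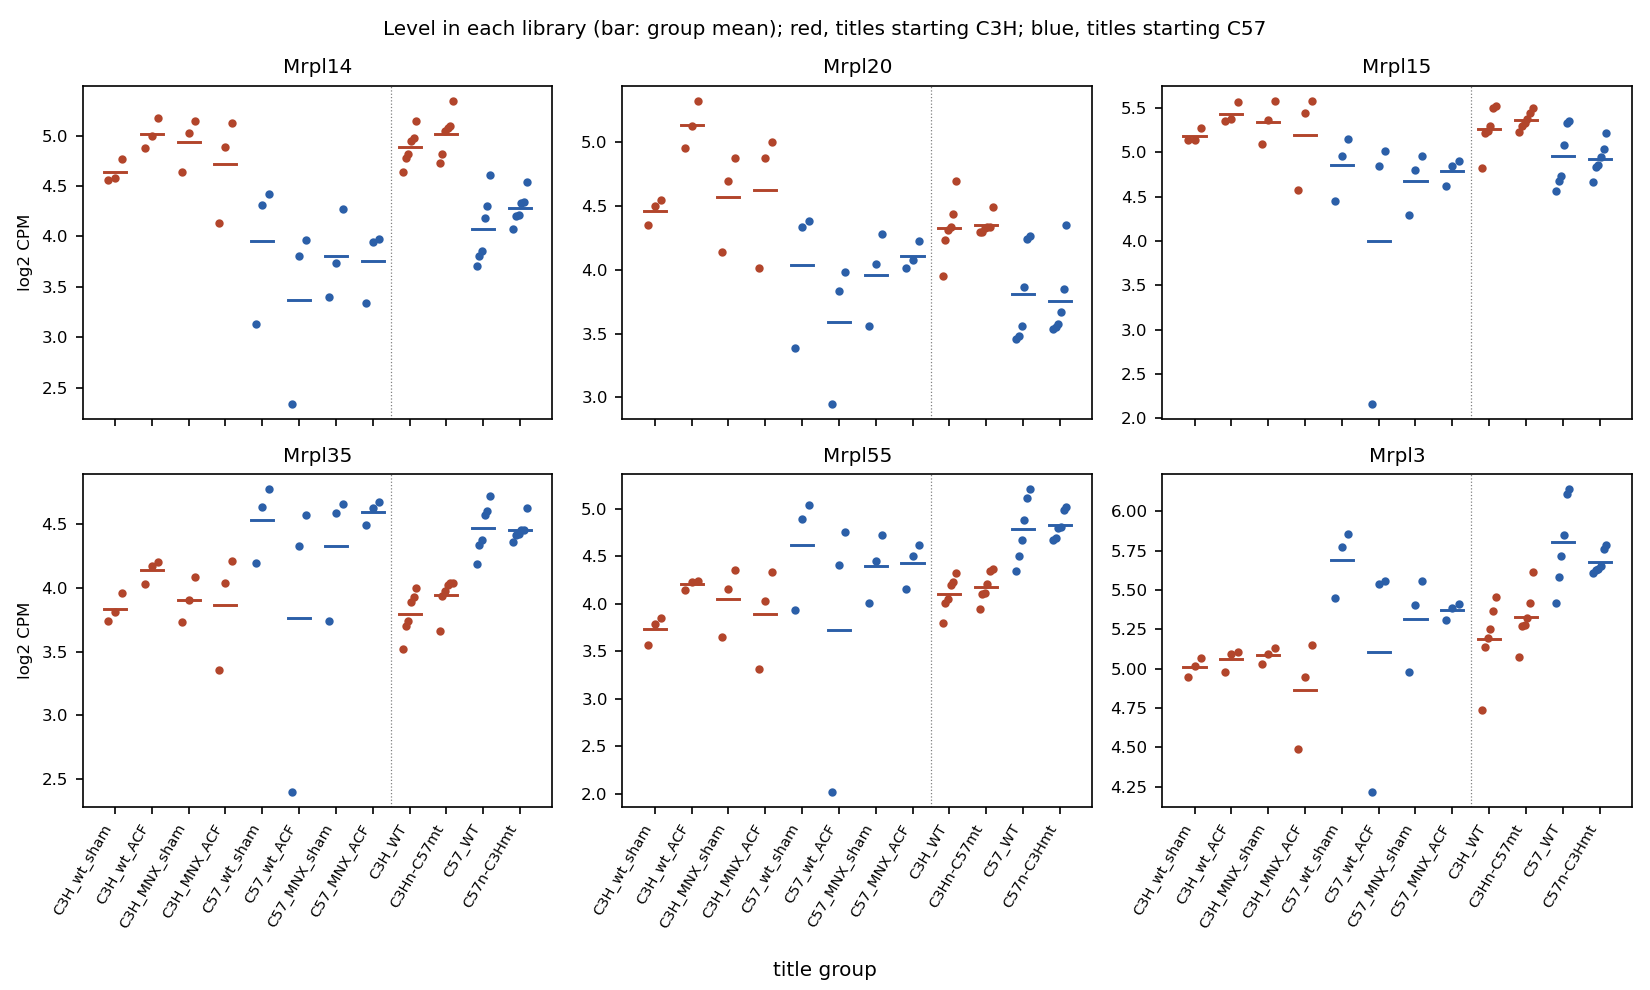
Level of 6 large subunit genes in every library (log2 CPM), by title group, with a bar at the group mean. Red groups have titles starting with C3H and blue ones with C57, and the dotted line separates set A (3 libraries per group) from set B (6 per group). Mrpl14, Mrpl20 and Mrpl15 stand higher in red groups, and Mrpl35, Mrpl55 and Mrpl3 higher in blue ones. The lowest blue point in each panel is library 489.

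The strain difference could also be read against the rest of the family in the same library. Relative to the median of the 76 genes, Mrpl35, Mrpl14, Mrpl3 and Mrpl15 did not overlap between C3H and C57 libraries in set B or in set A, library 489 included. Mrpl55, Mrpl20 and Mrps27 did not overlap in set B and did in set A, and Mrps5 did not overlap in set A and did in set B. That makes 7 genes in set B (9.21%) and 5 in set A (6.58%). Of all genes on the same scale, 4.62% did not overlap in set B (2.43% higher and 2.19% lower in C3H) and 2.11% in set A (0.848% and 1.26%), where the scale was centred on this family and not on the other genes. On this scale the differences in set B were -0.72 for Mrpl35, 0.64 for Mrpl14, -0.61 for Mrpl3, 0.24 for Mrpl15, -0.80 for Mrpl55, 0.42 for Mrpl20 and -0.37 for Mrps27. In set A they were -0.66, 0.81, -0.66, 0.41, -0.61, 0.48 and -0.48.

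In set A the 12 libraries with C3H titles against the 12 with C57 titles gave 6 calls in edgeR (7.89%, against 21.4% of all genes, 9.87% as higher and 11.5% as lower). Mrpl14, Mrpl20, Mrpl15, Mrpl54 and Mrpl28 were higher and Mrpl3 lower in C3H. Mrpl28 rose by 0.46 with an adjusted p of 0.048, and its call was lost in 17 of the 24 fits that leave out 1 library. The median log2 difference of the family was 0.23, and -0.02 for all genes. DESeq2 called 10. Without library 489 edgeR called 17 (22.4%, against 27.3% of all genes), without library 6756 it called 15 (19.7%, against 25.2%), and without both it called 28 (36.8%, against 33.0%).

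Among sham wild types alone (3 C3H_wt against 3 C57_wt), 0 genes of the family were called in edgeR, 3 had an unadjusted p under 0.05, and of all genes 3.76% were called, 2.17% as higher and 1.59% as lower (11.2% unadjusted). DESeq2 called 0. The 3 were Mrpl3 at -0.71 with an adjusted p of 0.14, Mrpl55 at -0.98 with 0.35 and Mrpl35 at -0.73 with 0.43. Mrpl14 stood at 0.57. None of these 4 genes overlapped between the groups, but with 3 libraries each this is easily met. The share of all genes without overlap was not counted here. Without library 489, which is in neither group and enters through the shared spread, scaling and filter, 3 genes of the family were called lower. They were 3.95% of the family, where 6.49% of all genes were called in either direction.

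Sets A and B share no library, and their strain differences can be set side by side. All 18 genes called in set B had the same sign in set A, and 5 (27.8%) were called in both: Mrpl14, Mrpl20, Mrpl15, Mrpl54 and Mrpl3. Of all 4683 genes that were called in set B and tested in both sets, 95.3% had the same sign in set A and 47.4% were called in both. Of the 5, Mrpl14 and Mrpl20 were called in set A under each alternative run, and the other 3 were not. Over all 76 genes the sign was the same for 67 (88.2%), and for 79.0% of the 13116 genes tested in both sets. The correlation of the log2 differences across genes was 0.89 for the 76 genes and 0.91 for all genes, as a description, since genes are not independent replicates.

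**Figure D5:**
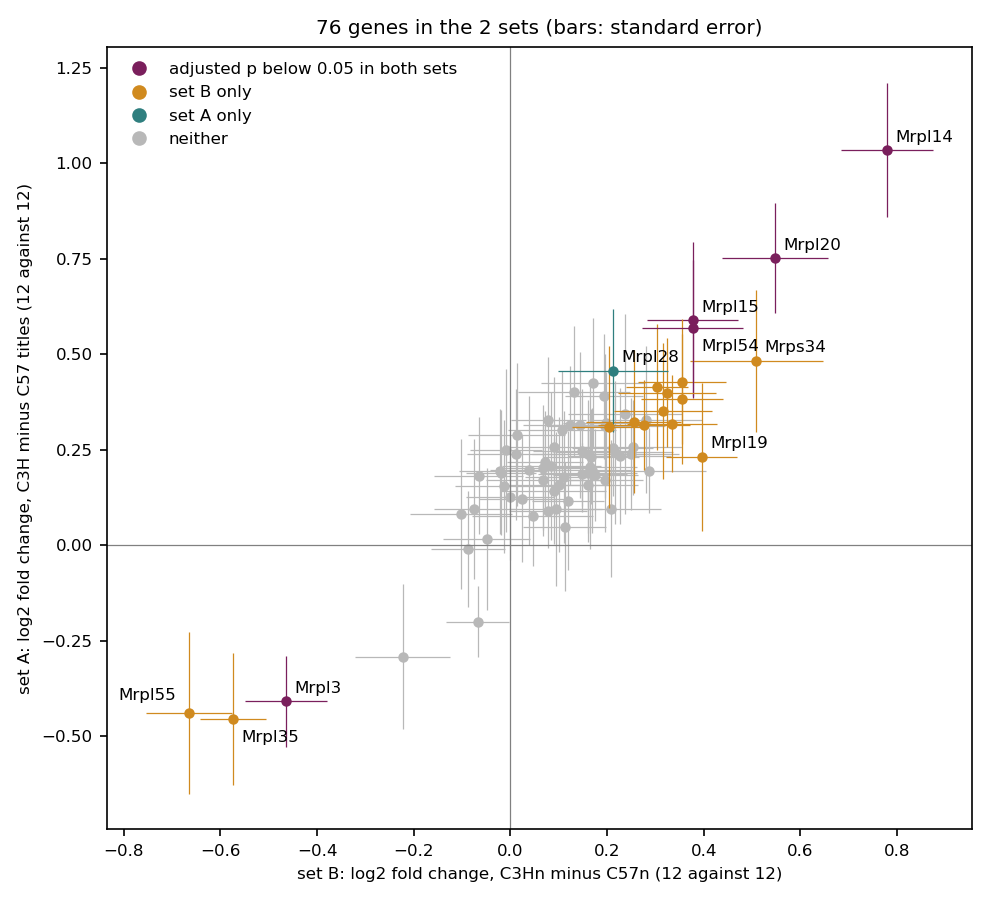
Log2 fold change of each of the 76 genes between the strains in set B (x axis, C3Hn minus C57n) and set A (y axis, C3H minus C57 titles), with bars of 1 standard error on each side. Purple marks genes called in both sets, orange in set B only, green in set A only, grey in neither. Mrpl14 lies at the upper right, at 0.78 and 1.03, and Mrpl55, Mrpl35 and Mrpl3 at the lower left.

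The position of the genes was read from the order of genes in GRCm38.p6. Mrpl35 lies on chromosome 6 with 1 gene between it and Ptcd3, which encodes a small subunit protein under another symbol. Ptcd3 fell by 0.59 in set B, where Mrpl35 fell by 0.57. The nearest genes tested on either side of Mrpl35, Reep1 and Immt, stood at 0.12 and -0.10 and were not called. Mrpl20 lies on chromosome 4 with 1 gene between it and Aurkaip1, also a small subunit protein. Aurkaip1 rose by 0.24 in set B and by 0.49 in set A, while Tmem88b, near to Mrpl20, fell by 1.04 in set B and stood at -1.29 in set A. Ccnl2, next to Mrpl20, fell by 0.28 in set B and stood at -0.20 in set A, where it was not called.

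Mrpl14 and Mrps18a lie on chromosome 17 with 2 genes between them, at 0.78 (called) and 0.17 (not called) in set B. The neighbours Tmem63b and Vegfa were not called, and Vegfa stood at -0.04. Nudt16, next to Mrpl3, fell by 1.10 in set B and by 0.71 in set A, where Mrpl3 fell by 0.46 and by 0.41. Dnajc13, also near to Mrpl3, stood at 0.03 in set B and was not called. Guk1 and 2310033P09Rik, next to Mrpl55, stood at -0.26 and 0.27 in set B, and both were called. Nme3 and Eme2, next to Mrps34, rose by 0.75 and 0.43 in set B. Whether reads of such close neighbours were shared in counting was not tested. Mrpl46 and Mrps11, neighbours on chromosome 7 with no gene between them, stood at 0.20 and -0.01 and neither was called. The build named in the submitters' notes is that of C57BL/6J, and the effect of sequence differences on the counts of C3H animals was not tested.

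Genes that work with this ribosome were also compared between the nuclear strains in set B, where 35.7% of all genes were called. Of 7 subunits under other symbols, edgeR called 2 higher in C3Hn (Aurkaip1 and Mrp63) and 1 lower (Ptcd3). Of 14 translation factors 6 were higher and 0 lower, among them Tsfm, an elongation factor, by 0.56, Mrrf, the ribosome recycling factor, by 0.35, and Gfm2, which acts with it, by 0.29. Of 17 aminoacyl-tRNA synthetases 5 were higher and 2 lower, with Nars2 at 0.53 and Vars2 at -0.49. These shares stand beside 18.9% of all genes called higher and 16.8% called lower.

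Of 22 assembly and rRNA modification factors 5 were higher and 3 lower. Mettl17, needed for assembly of the small subunit, rose by 0.65 and Ngrn, a factor of the large subunit RNA, by 0.55, and Trmt61b, a methyltransferase, fell by 1.54. These 3 were called with the same signs in set A, at 0.58, 0.70 and -1.53. Of 13 genes of mitochondrial transcription and its regulation 4 were higher and 1 lower, with Tfam at 0.29, Polrmt, the mitochondrial RNA polymerase, at 0.33, and Myc at -0.86. Of the 37 Nduf genes 4 were higher and 0 lower, and of 79 cytosolic ribosomal proteins 2 were higher and 2 lower. In the same comparison 18.9% of all genes were called higher and 16.8% lower.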

How the data were processed

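The authors deposited a table of estimated counts, or expected counts, per gene for 48 libraries, in which 13.9% of values are not whole. CASAVA 1.8.2, Bowtie, RSEM 1.2.0 and build mm9 are named per the submitters' processing notes, whereas the labels' protocols speak of an in-house mapping method of the sequencing provider. Which of them gave rise to these counts is not given in the sources used here. Total RNA of cardiomyocytes had been made into stranded poly(A) libraries, per the labels' protocols.

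Values were rounded to whole counts. edgeR 4.0.16 (R 4.3.3, limma 3.58.1) fitted 1 quasi-likelihood model of group means to set A (13440 genes) and 1 to set B (13395 genes), with TMM scaling, the filter of filterByExpr and Benjamini-Hochberg adjustment over all genes at 0.05. DESeq2 1.42.0 was an alternative. Standard errors were taken as the log2 difference over the root of F. For levels, TMM ran over all 48 libraries and log2 CPM were taken with 2 as the prior count. Coding lengths were the longest coding sequence of each gene symbol in GENCODE M21. Promoters came from RefSeq for GRCm38.p6, and neither source is of the build named for the table. No 2 libraries of a group agreed within counting noise (lowest chi-square per degree of freedom 3.86).

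The members and gene lists were chosen with earlier results of these data known. The 2 strain comparisons (all 12 against 12 libraries in each set), scaling by library totals and levels relative to the family's median were added after seeing the data. Named genes are up to 6 per direction past the threshold by adjusted p; with fewer than 3 past it, 2 per direction by unadjusted p; the 5 highest and 3 lowest per coding kilobase; the 3 with the largest SD; 9 with known roles; up to 3 per companion list; and Kcnj14, Hba-a2 and Rn45s as library checks. 1 gene that this rule names is not reported here. Neighbours, and genes just outside the threshold, were named after their values were seen. Replicates carry animal-like numbers, but the labels do not state that they were separate animals, so p-values measure the spread between libraries. Mrp63, also a subunit of this ribosome, is outside the symbol rule and is counted with the other-symbol subunits. The calls and fold estimates of 4 of the comparisons were tested on simulated data with known changes. Of 2-fold changes, 22% were recovered for ACF in C57_wt and 80% for the mean ACF effect. For the exchange in the C57 nucleus it was 88%, and for the nuclei under C57mt 80%. Of 1.5-fold changes, 6%, 44%, 48% and 44% were recovered in the same order, so smaller differences would often be missed.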

Additional observations from a re-analysis of the deposited data

Results flagged for a closer look

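In the groups of 6 libraries of set B, a gene was singled out when its highest or lowest library lay far from the nearest of the others relative to the whole range of the group. Of 188 gene and group pairs, 13 met this. The pairs did not cover every gene of the family in every group. Most of the genes singled out had been named by their p or level in these same data. Chance alone gives about 1 in 20 for independent pairs. The levels of these genes moved together from library to library, so the pairs are not independent. The 13 therefore cannot be weighed against that rate. All 13 lie in 4 libraries.

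C3H_WT 23 was the low library of Mrpl49, at 4.14 log2 CPM against 4.53 to 4.71 in the other libraries of its group, of Mrps18a at 4.48 (5.02 to 5.24), of Mrps25 at 3.81 (4.15 to 4.29) and of Mrps6 at 3.22 (3.53 to 3.72). The median of the 76 genes in this library was -0.25. C3Hn-C57mt 18 was the high library of Mrpl20 at 4.49 (4.29 to 4.34), Mrpl49 at 4.93 (4.53 to 4.67), Mrps15 at 4.68 (4.37 to 4.48) and Mrps16 at 4.89 (4.47 to 4.62). In C3Hn-C57mt 15, Mrpl35 was low at 3.66 (3.94 to 4.04).

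C57n-C3Hmt 7 was the high library of Mrpl33 at 4.63 (3.93 to 4.10), Mrpl35 at 4.63 (4.36 to 4.46), Mrpl42 at 7.02 (6.48 to 6.66) and Mrps11 at 3.31 (2.83 to 2.94). Without it, 29 genes of the family were called between the nuclear strains in set B, against 18 with it. The share of all genes called without it is not given here. The part of this library's makeup in these values was not tested.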

How the results depend on the processing

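No paired analysis was possible because the groups compared share no replicate numbers. The 0 calls under ACF and for the exchange of mitochondria held under every alternative run but one. Library totals as scaling gave 50 lower calls for the exchange in the C57 nucleus, where the median of all genes was lowered as well. Between sham wild types, 2 genes were called with the compared groups alone and 3 without libraries 489 and 6756 (0 to 3 leaving out 1 library). Between C3H and C57 titles of set A, against 6, there were 10 with DESeq2, 10 with the L code, 53 with library totals and 28 without libraries 489 and 6756. In that last run 33.0% of all genes were called, against 21.4% with all libraries. Leaving out 1 library gave 3 to 17: 3 without 6650 or 6661, 11 without 6695, 12 without 490, 15 without 6756 or 465 and 17 without 489. Between nuclei under C57mt, against 12, there were 7 with library totals and 4 with the L code, and 8 to 26 leaving out 1 library (26 without C57_WT 2). Under C3Hmt, against 11, there were 7 with DESeq2 size factors, 7 with upper-quartile scaling, 48 with library totals, 6 without the filter and 3 with the L code, and 5 to 15 leaving out 1 library, with 7 or fewer without any one of C3H_WT 19, 20, 21, 22 or 24, C3Hn-C57mt 13 to 17, C57_WT 5, or C57n-C3Hmt 9 to 12. Over both, against 18, there were 39 with library totals and 7 with the L code, and 16 to 31 leaving out 1 library (28 without C3H_WT 23, 29 without C57_WT 1 or C57n-C3Hmt 7, 31 without C57_WT 2). These counts are of the family alone, and for most runs the share of all genes is not given beside them.

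The signs that turned belong to differences that were not called. Leaving out 1 library, ranges were -0.090 to 0.035 for Mrps25 (ACF in C3H_wt), -0.12 to 0.34 for Mrpl52 (ACF in C57_wt), -0.093 to 0.33 for Mrpl20 and -0.042 to 0.33 for Mrps2 (ACF in C3H_MNX), -0.48 to 0.14 for Mrpl33 and -0.42 to 0.053 for Mrps6 (ACF in C57_MNX), -0.075 to 0.29 for Mrpl49 (C3H exchange in ACF), -0.47 to 0.058 for Mrps26 (C57 exchange in ACF) and -0.0041 to 0.090 for Mrps15 (exchange in the C3H nucleus). With the L code, Mrpl27 was at 0.089 (ACF in C3H_MNX), Mrps6 at 0.031 (ACF in C57_MNX), Mrps15 at -0.068, and Mrps18c at -0.32 and Mrpl2 at -0.24 for the difference of the mitochondrial effects. With library totals, Mrpl14 was at -0.18 and Mrps24 at -0.20 in the C57 nucleus, and Mrpl14 at 0.013 and Mrpl39 at 0.078 for the difference. The cause of these changes was not tested. In set B all C3H_WT libraries carry L code 3 and all C57_WT libraries 8, while code 2 holds 4 libraries each of C3Hn-C57mt and C57n-C3Hmt. Both nuclear strains are thus present within that code. There they differ in mitochondrial genome as well, so that the nuclear and the mitochondrial strain cannot be told apart within it.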
